A study of Mus musculus with 22 samples.

Results

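Expression of 10 genes of the NF-kappaB system was followed in sorted lung epithelial cells (ECs): the 5 subunit genes Nfkb1, Nfkb2, Rel, Rela and Relb, the inhibitor genes Nfkbia, Nfkbib, Nfkbie and Nfkbiz, and Tnfaip3. They were chosen by symbol from the 21793 protein-coding genes of the 54373 genes listed, and all 10 were found in both count tables and passed the filter on low counts. The ECs came from WT mice, mice lacking the aryl hydrocarbon receptor (labelled AhR-/-), a ligand-activated transcription factor, and mice lacking CYP1B1 (labelled CYP1B1-/-), a cytochrome P450 enzyme that AhR induces. All mice were on the C57BL/6 background, males and females over 7 weeks of age, and the cells were sorted as live single CD45-EpCAM+ cells. CD31+ cells were also gated out according to one description of the sort, and the other does not name that marker. They were naive, at steady state, or taken from mice made allergic to house dust mite (HDM, Dermatophagoides farinae extract), which were sensitized once intranasally, challenged 8 days later on 4 consecutive days and killed 72 h after the last instillation. The 22 libraries comprised 4 WT, 3 AhR-/- and 3 CYP1B1-/- naive libraries and 4 libraries of each genotype after HDM. Neither deletion was restricted to ECs, and whether a library held 1 mouse or several is not given in the sources used here.

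NF-kappaB transcription factors are dimers of RelA, c-Rel, RelB, p50 (made from the Nfkb1 product p105) and p52 (made from the Nfkb2 product p100), held in the cytoplasm by IkappaB proteins until an upstream kinase complex marks the inhibitor for destruction. The canonical route releases RelA and c-Rel dimers within minutes of cytokine or microbial sensing, and the slower non-canonical route processes p100 and releases RelB with p52. Several of the inhibitors, and Tnfaip3 (A20), which removes ubiquitin chains from upstream adaptors, are themselves targets of the pathway and close negative feedback loops. In airway epithelium the pathway drives chemokine and cytokine genes in response to allergens and microbes.

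In the GENCODE M21 annotation of build GRCm38 the subunit genes lie at chr3:135584655-135691547 (Nfkb1, ENSMUSG00000028163), chr19:46304320-46312385 (Nfkb2, ENSMUSG00000025225), chr11:23736847-23770970 (Rel, ENSMUSG00000020275), chr19:5637483-5648130 (Rela, ENSMUSG00000024927) and chr7:19606217-19629438 (Relb, ENSMUSG00000002983). The inhibitor genes lie at chr12:55489410-55492647 (Nfkbia, ENSMUSG00000021025), chr7:28758251-28767512 (Nfkbib, ENSMUSG00000030595), chr17:45555703-45563169 (Nfkbie, ENSMUSG00000023947) and chr16:55811375-55838899 (Nfkbiz, ENSMUSG00000035356), and Tnfaip3 at chr10:19000910-19015657 (ENSMUSG00000019850). Counts covered the exons of each gene, which sum to between 1.61 kb (Nfkbia) and 12.06 kb (Nfkb1).

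Feedback of this kind acts through kappaB sites near the start of the regulated gene, so the promoter windows were read for those letters. RefSeq windows of 300 bases (250 before and 50 after the start, build GRCm38.p6) were given for 7 of the 10 genes, and Nfkb1, Relb and Nfkbiz had no entry. The NF-kappaB consensus decamer, searched on both strands, was present in a window of 5 of these 7 genes, against 9.55% of 27025 genes with such windows. For each of these 5 genes 1 window with a match is printed 5′ to 3′ on the strand of the gene. The printed windows show where the matches lie, with matching letters in capitals.
Nfkb2, first of 3 starts, chr19:46304487-46304786, plus strand: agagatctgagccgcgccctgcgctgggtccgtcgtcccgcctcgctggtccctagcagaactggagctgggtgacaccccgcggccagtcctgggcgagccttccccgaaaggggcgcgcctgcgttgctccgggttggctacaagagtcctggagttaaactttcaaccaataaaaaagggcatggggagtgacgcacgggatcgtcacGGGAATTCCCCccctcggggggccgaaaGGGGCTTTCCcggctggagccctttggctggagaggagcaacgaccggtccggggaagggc
Rel, chr11:23770920-23771219, minus strand: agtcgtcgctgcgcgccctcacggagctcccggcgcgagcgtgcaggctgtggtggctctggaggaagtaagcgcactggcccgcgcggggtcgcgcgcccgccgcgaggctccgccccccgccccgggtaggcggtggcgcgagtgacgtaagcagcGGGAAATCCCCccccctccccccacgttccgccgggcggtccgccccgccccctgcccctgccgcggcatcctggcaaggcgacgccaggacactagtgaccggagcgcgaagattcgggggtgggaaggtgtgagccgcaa
Nfkbia, chr12:55492598-55492897, minus strand: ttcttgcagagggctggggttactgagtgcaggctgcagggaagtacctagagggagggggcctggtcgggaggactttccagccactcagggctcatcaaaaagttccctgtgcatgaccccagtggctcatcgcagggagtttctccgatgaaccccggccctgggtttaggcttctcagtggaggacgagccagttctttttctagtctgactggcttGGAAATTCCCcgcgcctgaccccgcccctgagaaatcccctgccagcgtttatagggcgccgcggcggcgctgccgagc
Nfkbie, chr17:45555450-45555749, plus strand: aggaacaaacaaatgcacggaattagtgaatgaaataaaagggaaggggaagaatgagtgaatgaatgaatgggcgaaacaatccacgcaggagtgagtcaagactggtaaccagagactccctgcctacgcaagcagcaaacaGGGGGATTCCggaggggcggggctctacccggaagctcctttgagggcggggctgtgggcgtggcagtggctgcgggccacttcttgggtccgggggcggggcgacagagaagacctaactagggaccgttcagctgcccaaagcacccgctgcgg
Tnfaip3, first of 2 starts, chr10:19015361-19015660, minus strand: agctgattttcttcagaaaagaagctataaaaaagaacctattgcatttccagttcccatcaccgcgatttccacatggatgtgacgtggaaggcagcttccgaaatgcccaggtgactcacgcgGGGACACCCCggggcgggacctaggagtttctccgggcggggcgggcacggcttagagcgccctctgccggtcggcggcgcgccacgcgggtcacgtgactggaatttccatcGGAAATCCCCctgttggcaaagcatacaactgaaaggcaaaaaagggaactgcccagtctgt
Capitals in Nfkb2 cover 4 matches in 2 places, because a palindromic match counts on both strands and neighbouring matches overlap; in Rel they cover 3 matches in 1 place. Of these windows, the match closest to the start was in Nfkb2, beginning 11 bases upstream, next to that of Tnfaip3 at 12 bases, and the match in Nfkbia began 29 bases upstream. The windows at the other starts of Nfkb2 also held a match and are not printed. GCGTG, the core letters of the site that AhR binds with its partner ARNT, was present in a window of 4 of the 7 genes (Nfkb2, Rel, Nfkbie and Tnfaip3) and in 35.2% of all genes. No match was found in the windows of Rela and Nfkbib for the consensus or for GCGTG. Binding was not measured, and the matches are letters only.

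Library totals ranged from 9654825 to 17878442 counts. After HDM the predicted gene Gm10800 took 0.00819% to 71.9% of a library, so that the TMM-scaled depth differed more than the totals, and 3 counts, the limit that a count of 0 allows, equalled 0.107 to 1.36 CPM (counts-per-million, TMM-scaled). These limits cover counting error only. The targeted genes were not lower in the libraries labelled as their knockouts. Ahr was at 17.6 ± 2.36 CPM (SD, n = 3) in naive libraries labelled AhR-/- against 9.58 ± 2.76 (n = 4) in WT, and Cyp1b1 at 5.1 ± 1.28 CPM (n = 3) in naive libraries labelled CYP1B1-/- against 1.14 ± 0.564 (n = 4) in WT. After HDM the same comparison gave 21.8 ± 6.04 against 15.3 ± 4.67 CPM for Ahr and 8.04 ± 4.01 against 1.79 ± 0.664 CPM for Cyp1b1 (n = 4 each). Counts per gene do not show whether the reads fell in the deleted part, and genotypes are given here as labelled. The Y-linked gene Ddx3y was read at 19.7 to 99.8 CPM in all naive libraries and at 67.3 and 69.6 CPM in AhR-/- HDM replicates 3 and 4, and at no more than 0.0859 CPM in the other 10 HDM libraries.

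Epcam, the gene of the sorting marker, was at 108 ± 27.8 CPM in WT naive, 196 ± 69.3 in WT HDM and 126 ± 58.2 in AhR-/- HDM libraries (SD, n = 4 each). Markers of other cells differed between the groups. The summed level of 24 hematopoietic markers was 270 to 595 CPM in WT naive, 300 to 314 in AhR-/- naive and 281 to 326 in CYP1B1-/- naive libraries. After HDM it was 2180 to 6820 CPM in WT, 308 to 1500 in AhR-/- and 428 to 6890 in CYP1B1-/- libraries. All 24 markers had counts in every library of each group other than AhR-/- HDM, where 22 did, and none was at 0 throughout a group. Csf1r made up most of the naive sum (227 ± 34.2 CPM in WT naive, SD, n = 4) and was at 126 ± 56.9 CPM in WT HDM, whereas Ptprc, which encodes CD45, was at 18.6 ± 23.2 CPM in WT naive, 412 ± 178 in WT HDM and 75.7 ± 67.9 in AhR-/- HDM (n = 4 each). The 6 pan-epithelial markers summed to 1480 to 2470 CPM over the naive libraries, 512 to 880 in WT HDM, 855 to 1070 in AhR-/- HDM and 592 to 878 in CYP1B1-/- HDM, with counts for all 6 in every library. Alveolar type 1 markers (5 genes) summed to 16000 to 19400 CPM in WT naive and 515 to 4000 in WT HDM. In AhR-/- and CYP1B1-/- HDM they summed to 2890 to 16900 and 368 to 3610 CPM. Alveolar type 2 markers (6 genes) ran from 2290 to 5270 CPM in WT naive and 4260 to 24300 in WT HDM. In AhR-/- and CYP1B1-/- HDM they ran from 7520 to 71700 and 5730 to 38400 CPM. Club cell markers (3 genes) ran from 1190 to 2730 CPM in WT naive and 192 to 1730 in WT HDM. In AhR-/- and CYP1B1-/- HDM they ran from 1620 to 7870 and 272 to 4840 CPM. All of these markers had counts in every library. In bulk RNA fewer cells of a type and less RNA per cell cannot be told apart.

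At steady state Nfkbia, Rela and Nfkbib stood highest. Levels of different genes are compared as CPM per kb of exon. In WT naive ECs Nfkbia, which encodes IkappaBalpha, the inhibitor resynthesized fastest after activation, was at 81.4 ± 7.72 CPM per kb (SD, n = 4). Rela, the main transactivating subunit of the canonical route, followed at 21.4 ± 5.53, and Nfkbib (IkappaBbeta) at 8.71 ± 1.00 CPM per kb. Nfkb2, Relb, Nfkbie (IkappaBepsilon) and Tnfaip3 lay between 3.42 and 4.25 CPM per kb, each within its spread of the next in order. Nfkbiz (IkappaBzeta, a nuclear family member that assists transcription of secondary response genes) was at 0.865 ± 0.176 and Rel at 0.784 ± 0.201, which overlapped, and Nfkb1 was lowest at 0.391 ± 0.0261 CPM per kb. The same first 3 and last 3 places were found in naive libraries of both other genotypes.

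**Figure D1:**
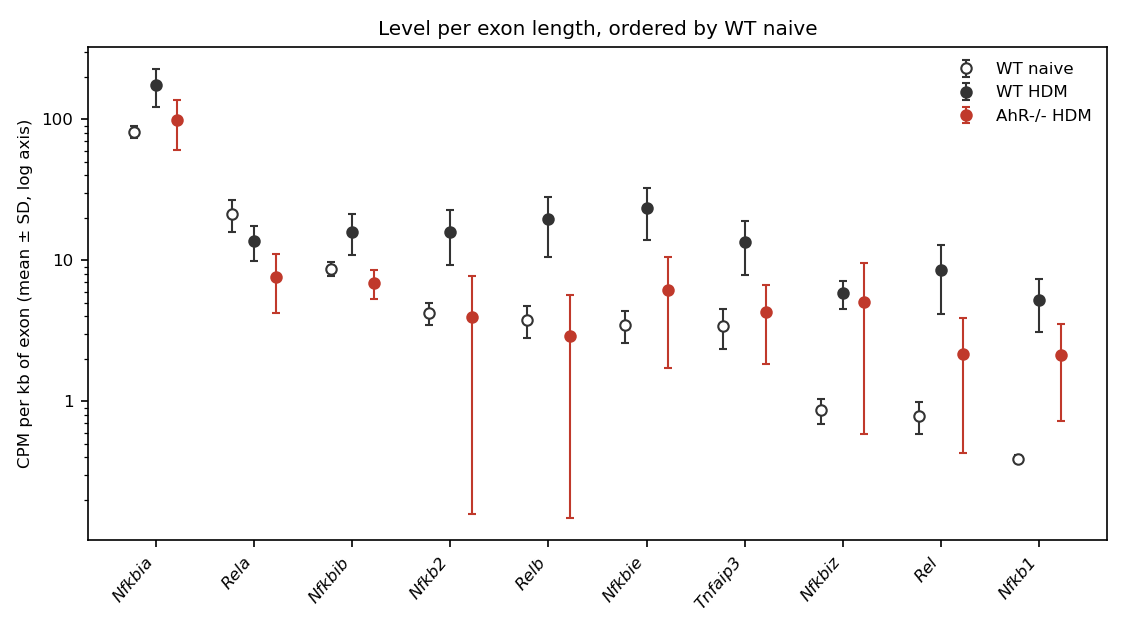
Level per exon length of the 10 genes (log axis; points are means and bars SD, n = 4 libraries) in WT naive, WT HDM and AhR-/- HDM libraries, in the order of WT naive. Nfkbia was highest in all 3 groups, and the range from second to last place narrowed from 21.4 to 0.391 CPM per kb in WT naive to 23.4 to 5.22 in WT HDM.

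After HDM the order was flatter. In WT HDM libraries Nfkbia stood at 174 ± 52.2 CPM per kb and Nfkbie came second at 23.4 ± 9.41, followed by Relb at 19.5 ± 8.86 and Nfkb2 at 16 ± 6.79. From Nfkbie down to Nfkb1 at 5.22 ± 2.14 CPM per kb, each gene overlapped the next within its spread. Rela went from second to sixth place at 13.8 ± 3.87 CPM per kb.

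The question whether HDM changed the pathway was put first to WT ECs. HDM libraries held more transcript of 4 of the 5 subunit genes, of all 4 inhibitor genes and of Tnfaip3, with Nfkb1 and Rel rising most, and Rela did not follow. In all, 9 of the 10 genes rose and 0 fell (edgeR quasi-likelihood test, adjusted p at most 0.05), in a comparison in which 38.4% of the 16639 genes tested were called, 19.0% as higher. The median log2 fold change was 2.18 for the 10 genes and -0.11 for all genes. In 8 of the 9 genes every HDM library lay above every naive library, as it did in 17.7% of all genes. The naive and HDM libraries were deposited in separate tables labelled as different runs, so that differences in their handling and the effect of HDM cannot be told apart. Nor can the sex of the mice in WT and CYP1B1-/-, where all naive libraries had Ddx3y reads and the HDM libraries had 0.

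Among the subunits, Nfkb1 stood at 5.13, 4.38, 4.61 and 4.74 CPM in WT naive replicates 1 to 4 and at 85.9, 33.0, 83.1 and 49.9 CPM in WT HDM replicates 1 to 4. The naive libraries differed by under 1 CPM and the lowest HDM library was far above them (log2 fold change 3.74, SE 0.45, adjusted p = 6.5e-06). Rel, the c-Rel gene best known from lymphocytes, went from 5.49, 7.47, 6.50 and 3.96 CPM to 53.5, 24.4, 101 and 75.5 CPM (3.44, SE 0.61, adjusted p = 0.000143). Relb was at 12.8, 15.1, 10.9 and 19.6 CPM in naive and at 85.7, 25.9, 105 and 86.7 CPM in HDM libraries, where replicate 2 stood apart below the other 3 (2.38, SE 0.58, adjusted p = 0.0024). Its partner gene Nfkb2 rose from 18.9, 20.4, 15.2 and 23.5 CPM to 84.2, 33.2, 107 and 68.0 CPM (1.91, SE 0.45, adjusted p = 0.00177). HDM replicate 2 was the lowest WT HDM library for all 10 genes, and it was also the lowest of the 4 in hematopoietic score (mean log2 CPM of the 24 markers, 5.35) and the highest in the share of Gm10800 (67.5%). Rela was at 54.1, 52.3, 67.1 and 89.1 CPM in naive and at 40.7, 29.7, 58.4 and 41.0 CPM in HDM libraries, so the groups overlapped (-0.63, SE 0.32, adjusted p = 0.129).

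Of the inhibitors, Nfkbie had naive values of 8.83, 10.8, 8.53 and 14.5 CPM and HDM values of 83.2, 29.9, 95.6 and 76.0 CPM (log2 fold change 2.74, SE 0.47, adjusted p = 8.75e-05). Nfkbiz went from 5.43, 4.07, 4.54 and 3.31 CPM to 32.4, 19.8, 34.4 and 30.4 CPM, the tightest HDM group of the 10 genes relative to its mean (2.76, SE 0.47, adjusted p = 7.45e-05). Tnfaip3 was at 26.2, 13.4, 29.5 and 29.9 CPM in naive libraries, replicate 2 being low, and at 96.8, 49.2, 149 and 95.2 CPM after HDM (1.98, SE 0.45, adjusted p = 0.00112). The 2 inhibitors most abundant in naive libraries, per kb of exon, moved least. Nfkbia went from 126, 119, 130 and 148 CPM to 344, 181, 356 and 239 CPM without overlap (1.10, SE 0.33, adjusted p = 0.0101). Nfkbib went from 19.0, 17.0, 17.7 and 21.9 CPM to 45.4, 21.3, 42.5 and 29.8 CPM, where HDM replicate 2 overlapped the naive group (0.88, SE 0.29, adjusted p = 0.0171). Without HDM replicate 1 or 3 Nfkbib did not pass, with adjusted p of 0.0638 and 0.0581. Exons of Nfkbib overlap those of Ccer2 over 14.5% and of Sirt2 over 1.94% of their length on the other strand, and exons of Nfkb2 overlap AC114539.1 over 11.6% and Psd over 6.52%. Whether the counting used strand is not given in the sources used here, so reads of these partners cannot be told apart.

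**Figure D2:**
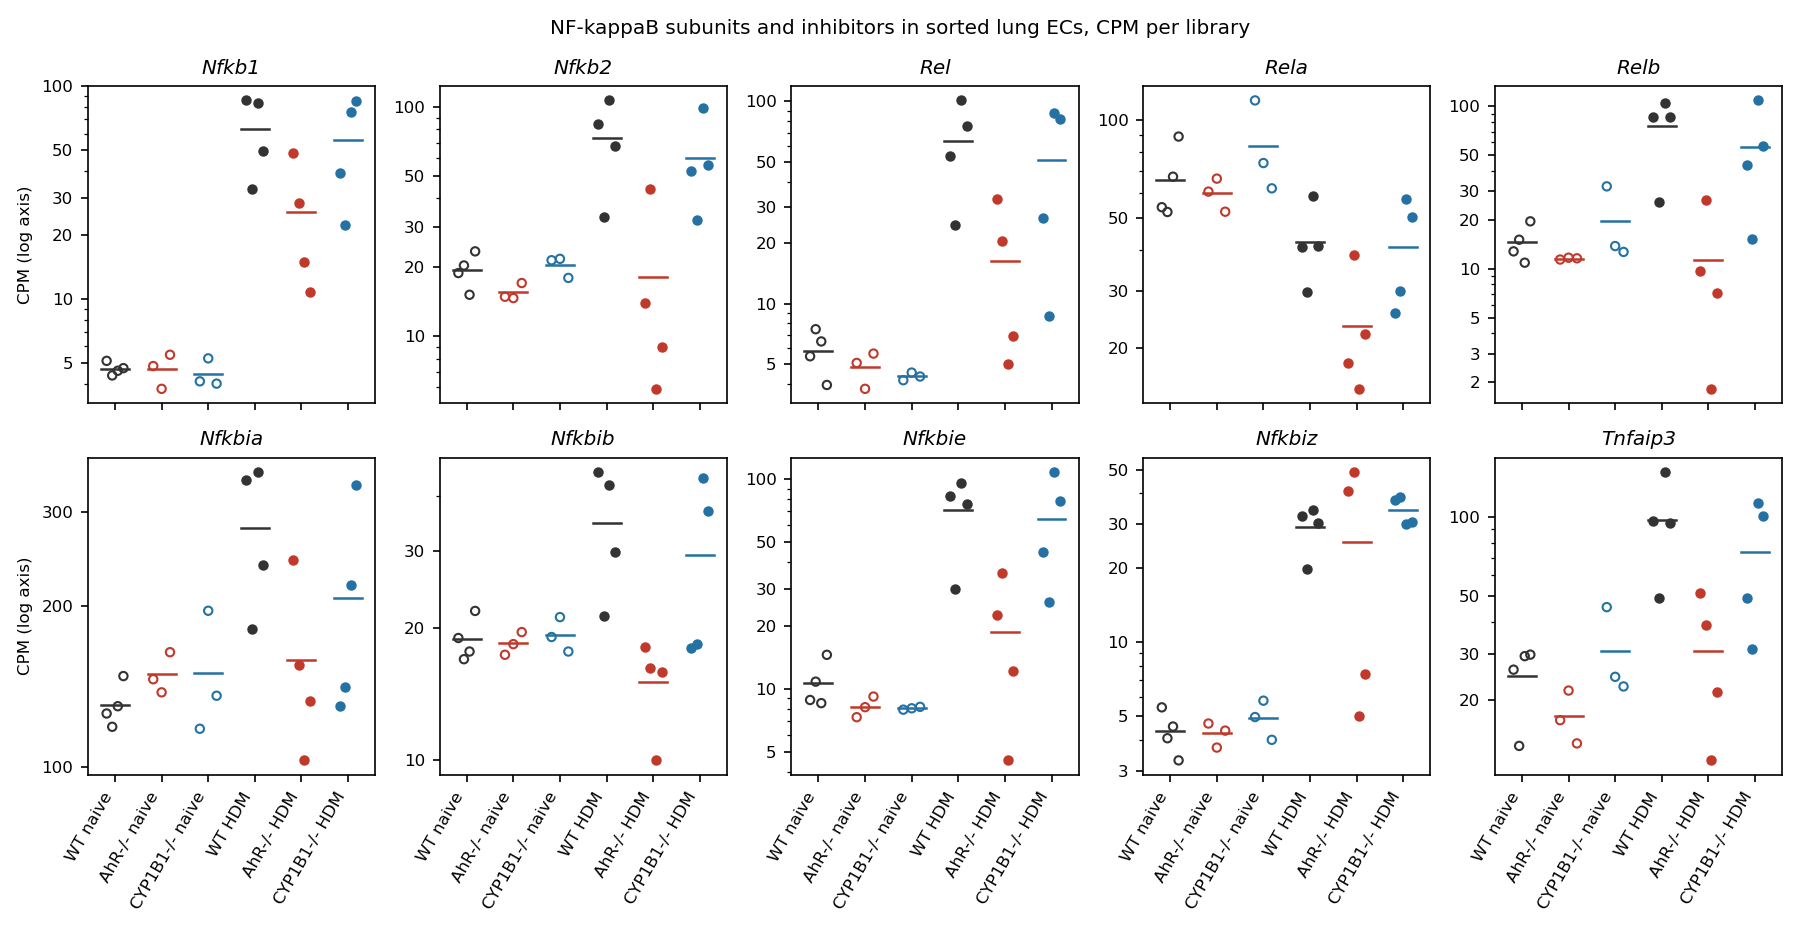
CPM of each gene (log axis, own range per panel) in the 22 libraries; open points are naive and filled points HDM libraries, and short lines are group means. In WT, Nfkb1 lay at 4.38 to 5.13 CPM in naive and 33.0 to 85.9 CPM in HDM libraries, and AhR-/- HDM replicates 3 and 4 were the 2 lowest HDM libraries for every gene but Rela and Nfkbia.

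In the libraries labelled AhR-/- the same contrast gave fewer calls. After HDM, Nfkb1 and Nfkbiz rose and Rela fell, and the other 7 genes did not pass the test. Of all genes 20.6% were called, 10.6% as higher and 10.1% as lower. Of the 3435 genes called 1757 were higher, and with upper-quartile scaling 2381 of 3794 were. The median log2 fold change of the 10 genes was 0.55 against -0.05 for all genes, and it was 0.89 without HDM replicate 3, 1.21 without HDM replicates 3 and 4 and -0.02 with voom. Nfkb1 was at 4.85, 3.79 and 5.48 CPM in AhR-/- naive replicates 1, 3 and 4 and at 48.4, 28.4, 15.0 and 10.8 CPM in HDM replicates 1 to 4 (2.47, SE 0.48, adjusted p = 0.00168). Nfkbiz went from 4.67, 3.73 and 4.37 CPM to 40.8, 48.9, 5.00 and 7.42 CPM, so that replicates 1 and 2 were high and replicates 3 and 4 close to the naive range (2.62, SE 0.52, adjusted p = 0.00183). Rela was at 60.4, 66.2 and 52.4 CPM in naive and at 18, 38.7, 15.0 and 22.1 CPM in HDM libraries, all below the naive group (-1.33, SE 0.35, adjusted p = 0.00949). Rel missed the threshold at 1.80 (SE 0.65, adjusted p = 0.0525), and Relb, which had risen in WT, had a log2 fold change of 0.03 (SE 0.61, adjusted p = 0.978), which was -0.70 without HDM replicate 2, 0.42 without replicate 3 and 0.73 without replicates 3 and 4. Without AhR-/- HDM replicates 3 and 4, the 2 libraries with Ddx3y reads, 5 of the 10 genes rose (Nfkb1, Rel, Nfkbie, Nfkbiz and Tnfaip3) and 0 fell, Rela having an adjusted p of 0.0756, where 4067 of all 17203 genes were called and 2611 of these rose. Without HDM replicate 3 alone or HDM replicate 4 alone, 5 of the 10 genes were called, as were 3520 and 3935 of all genes. Without any other 1 AhR-/- library 2 of the 10 rose and 1 fell, and 1532 to 3070 of all genes were called. Replicates 3 and 4 also had lower hematopoietic scores (2.57 and 2.21) than replicates 1 and 2 (4.72 and 5.12), and Gm10800 took 71.9% and 62.7% of their counts, against 0.00819% and 46.5%.

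In the libraries labelled CYP1B1-/- 6 genes rose after HDM (Nfkb1, Nfkb2, Rel, Nfkbie, Nfkbiz and Tnfaip3) and Rela fell. Of all genes 33.4% were called, 15.5% as higher and 17.9% as lower, and the median was 1.55 for the 10 genes and -0.02 for all genes. Nfkb1 went from 4.11, 5.27 and 4.01 CPM in naive replicates 2, 3 and 4 to 39.3, 22.2, 75.9 and 85.3 CPM in HDM replicates 1 to 4 (3.64, SE 0.51, adjusted p = 2.36e-05). Nfkbie went from 7.94, 8.06 and 8.19 CPM, 3 nearly equal values, to 44.7, 25.9, 108 and 78.7 CPM (3.00, SE 0.54, adjusted p = 0.00016). Rel went from 4.18, 4.56 and 4.36 CPM to 26.5, 8.65, 87.3 and 82.2 CPM, where replicate 2 was lowest (3.56, SE 0.70, adjusted p = 0.000419). Nfkbiz was even across the HDM libraries at 37.7, 38.6, 30.1 and 30.6 CPM, against 4.96, 5.78 and 4.01 CPM in naive libraries (2.79, SE 0.52, adjusted p = 0.000242). Nfkb2 (1.56, SE 0.50, adjusted p = 0.017) and Tnfaip3 (1.26, SE 0.48, adjusted p = 0.0462) rose less, and Tnfaip3 overlapped between the states at 31.4 CPM in HDM replicate 2 and 45.4 CPM in naive replicate 2. Rela fell by 1.03 on the log2 scale (SE 0.34, adjusted p = 0.0229), from 115, 73.9 and 61.8 CPM to 25.6, 30.0, 57.2 and 50.5 CPM. Tnfaip3 did not pass without HDM replicate 3 or 4 or naive replicate 3 or 4, Nfkb2 without HDM replicate 3 or naive replicate 3 or 4, and Rela without HDM replicate 1 or 2 or naive replicate 2. Relb, at 1.54 (SE 0.62, adjusted p = 0.062), passed without HDM replicate 1 or 2 or naive replicate 2.

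**Figure D3:**
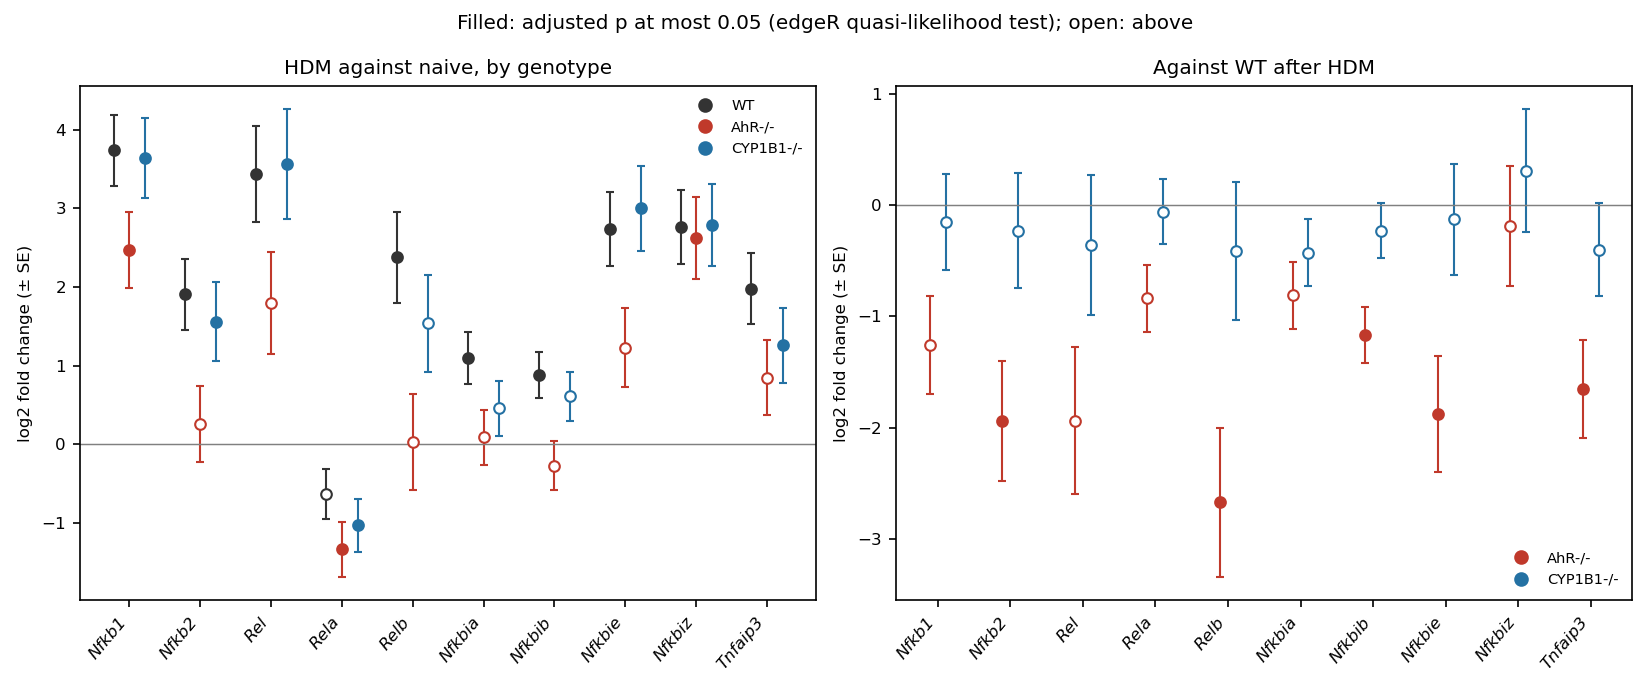
Log2 fold changes (± SE) of the 10 genes for HDM against naive in each genotype (left) and against WT after HDM (right); filled points passed an adjusted p of 0.05 and open points did not. Nfkbiz was at 2.62 to 2.79 in all 3 genotypes on the left, and Relb at -2.67 was the lowest AhR-/- value on the right.

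The hematopoietic markers moved with these state differences. When their mean log2 CPM was entered as a covariate, 0 of the 10 genes passed in WT, 0 in CYP1B1-/- and Rela alone in AhR-/- libraries. In WT 45 of 16639 genes passed, and 2 of the 10 had an unadjusted p under 0.05, as did 2043 of all genes. In that fit the median log2 fold change of the 10 genes was 0.38 in WT (2.18 without the covariate), -0.07 in CYP1B1-/- (1.55) and -0.39 in AhR-/- (0.55). In WT the values ran from -1.28 (SE 0.55, adjusted p = 0.346) for Rela to 1.93 (SE 0.63, adjusted p = 0.202) for Nfkb1, with Rel at 0.73 (SE 0.84, adjusted p = 0.807).

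**Figure D4:**
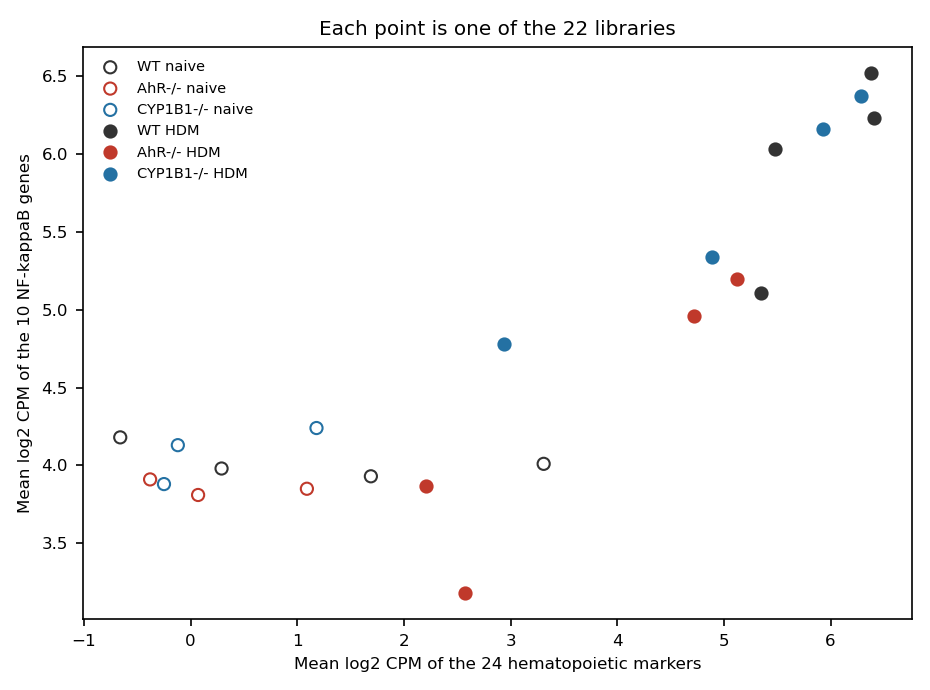
Mean log2 CPM of the 10 NF-kappaB genes against that of 24 hematopoietic markers, 1 point per library (open, naive; filled, HDM). Naive libraries ran from -0.66 to 3.31 on the marker axis while the 10 genes stayed between 3.81 and 4.24, and HDM libraries ran from 2.21 to 6.41 and from 3.18 to 6.52.

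The comparison of genotypes after HDM asked whether the levels of the 10 genes differed between libraries labelled AhR-/- and WT. Their summed hematopoietic markers also differed, at 308 to 1500 CPM in AhR-/- and 2180 to 6820 in WT. Ddx3y was at 67.3 and 69.6 CPM in 2 AhR-/- HDM libraries and at 0 in WT HDM. Genotype, sex and cell content therefore cannot be told apart. In the libraries labelled AhR-/- 5 genes were lower than in WT (Nfkb2, Relb, Nfkbib, Nfkbie and Tnfaip3) and 0 were higher, where 22.1% of the 14161 genes tested were called, 12.9% as lower. The called genes cover the non-canonical pair, 2 IkappaB genes and A20. The median log2 fold change was -1.45 for the 10 genes and 0 for all genes, and 9 of the 10 genes, against 38.8% of all genes, had an unadjusted p under 0.05. In 1 of the 10 genes, Nfkbib, every AhR-/- library lay below every WT library, as it did in 9.91% of all genes.

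Relb had the lowest fold change. It was at 9.71, 26.6, 1.82 and 7.07 CPM in AhR-/- HDM replicates 1 to 4 against 85.7, 25.9, 105 and 86.7 CPM in WT HDM (-2.67, SE 0.67, adjusted p = 0.0268). AhR-/- replicate 2 reached the level of WT replicate 2, and replicate 3 rested on 4 counts. Nfkb2 was at 14.0, 43.9, 5.91 and 9.01 CPM against 84.2, 33.2, 107 and 68.0 CPM, with the same 2 libraries overlapping (-1.94, SE 0.54, adjusted p = 0.0313). Nfkbie was at 22.4, 35.6, 4.55 and 12.2 CPM against 83.2, 29.9, 95.6 and 76.0 CPM (-1.88, SE 0.52, adjusted p = 0.0308). Tnfaip3 was at 51.3, 38.7, 11.8 and 21.6 CPM against 96.8, 49.2, 149 and 95.2 CPM, where AhR-/- replicate 1 lay just above WT replicate 2 (-1.65, SE 0.44, adjusted p = 0.0285). Nfkbib was at 18.1, 16.2, 10.0 and 15.9 CPM, all under the lowest WT value, 21.3 CPM (-1.17, SE 0.25, adjusted p = 0.0261). Of these values 1 lay within and 3 lay below the AhR-/- naive range of 17.4 to 19.6 CPM.

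The 5 genes that did not pass fell into 2 kinds. Rel (-1.94, SE 0.66, adjusted p = 0.0514), Nfkb1 (-1.26, SE 0.44, adjusted p = 0.0559), Rela (-0.84, SE 0.30, adjusted p = 0.0575) and Nfkbia (-0.81, SE 0.30, adjusted p = 0.0663) lay just outside the threshold with negative values. Rel was at 32.8, 20.3, 5.00 and 6.89 CPM in AhR-/- HDM replicates 1 to 4, and Nfkbia at 244, 155, 103 and 133 CPM. In both, replicate 1 was highest and replicates 3 and 4 were lowest. Nfkbiz was at -0.19 (SE 0.54, adjusted p = 0.842), its 2 high AhR-/- libraries being above and its 2 low ones below the WT range.

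These 5 calls depended on single libraries. After HDM, 0 of all genes, the 10 included, were called without AhR-/- replicate 1, 3 or 4 or WT replicate 3 or 4. In these fits 7 to 9 of the 10 had an unadjusted p under 0.05, as did 4148 to 4987 of 14372 to 15003 genes. The median log2 fold change of the 10 was -1.24 to -1.77, against -1.45 with all libraries. Leaving out WT replicate 1 left 1 (Nfkbib). With replicate number as a block 0 of the 10 genes and 1 of all 14161 genes passed. An unadjusted p under 0.05 was found in that fit for 8 of the 10 and 5370 of all genes. Without the 2 AhR-/- libraries with Ddx3y reads 0 passed, and Nfkbiz was then at 0.57. In that fit 5 of the 10 had an unadjusted p under 0.05, as did 3126 of 15713 genes. With the hematopoietic score as a covariate 0 of the 10 genes and 0 of all genes passed. Of the 10 genes 5 had an unadjusted p under 0.05 with this covariate, as did 1725 of 14161 genes. The median of the 10 genes was then -0.60 and Relb was at -1.47 (adjusted p = 0.371). The number called was 8 by edgeR's likelihood ratio test, 9 by DESeq2 and 10 by limma voom with sample weights, and over all 14161 genes these tools called 4120, 4592 and 6669, against 3129 as reported.

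**Figure D5:**
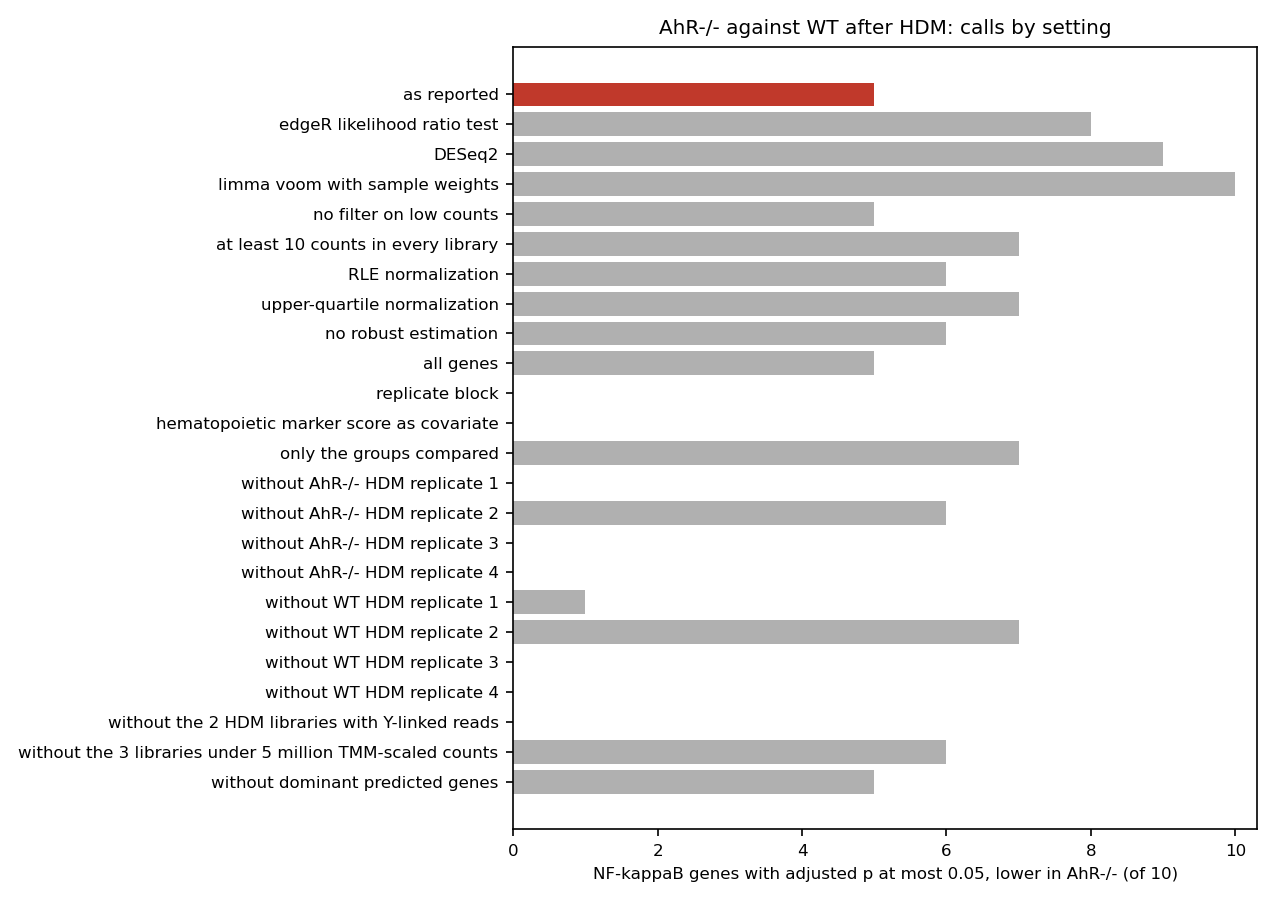
Number of the 10 genes called lower in AhR-/- than in WT HDM libraries (x axis, from 0) as reported (5, red) and under each alternative (grey). The number ran from 0 to 10, and 8 of the settings shown gave 0; with at least 10 counts required in every library Relb was not tested.

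Whether the response to HDM itself differed between genotypes was tested as an interaction. For AhR-/- 0 genes passed by edgeR's quasi-likelihood test, members of the group included, and 0% of all genes did. The interaction was negative in 10 of the 10 genes, with a median of -1.21 against 0.02 for all genes, and 6 had an unadjusted p under 0.05, as did 18.3% of all genes. Relb was lowest at -2.35 (SE 0.82, adjusted p = 0.159), followed by Nfkb2 and Rel at -1.65 (SE 0.65 and 0.84). Nfkbiz was closest to 0 at -0.13 (SE 0.65, adjusted p = 0.954). DESeq2 called 3 of the 10 genes, limma voom 10 and the likelihood ratio test 0, and without AhR-/- HDM replicate 2 edgeR called 3. Over all genes these were 1236, 5042, 221 and 1017 calls. Without the 2 HDM libraries with Ddx3y reads the median of the 10 genes was -0.82. An unadjusted p under 0.05 was then found for 2 of the 10 and 2034 of 17203 genes. With the hematopoietic score the median was -0.90, with 3 of the 10 and 2230 of 16639 genes under 0.05. The sex of the mice cannot be told apart from this interaction. All WT naive and none of the WT HDM libraries had Ddx3y reads, and 2 AhR-/- HDM libraries had them. For CYP1B1-/- 0 genes passed, 0% of all genes, 0 of the 10 had an unadjusted p under 0.05, and DESeq2, the likelihood ratio test and voom called 0; the values ran from -0.84 (SE 0.81) for Relb to 0.27 (SE 0.66) for Nfkbie.

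Between the libraries labelled CYP1B1-/- and WT after HDM, 0 of the 10 genes and 0% of all genes passed, 0 of the 10 had an unadjusted p under 0.05, and DESeq2, the likelihood ratio test and voom also called 0 of them. Log2 fold changes ran from -0.43 (SE 0.30) for Nfkbia to 0.31 (SE 0.55) for Nfkbiz. The spread within CYP1B1-/- HDM was wide, and Relb was at 43.8, 15.3, 109 and 57.3 CPM in replicates 1 to 4. Replicate 3 lay above and replicate 2 below the WT range, and replicate 2 was also the lowest of the group for Nfkb1, Nfkb2, Rel, Nfkbie and Tnfaip3. SE ran from 0.25 (Nfkbib) to 0.63 (Rel), and these values do not show that the groups were alike.

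At steady state none of the 10 genes passed in either knockout group. In the libraries labelled AhR-/- 0 of the 10 genes and 0% of 15547 genes passed. Of the 10, Nfkbie alone had an unadjusted p under 0.05 (-0.40, SE 0.18), as did 1.69% of all genes. Of the 10 genes 9 had a negative value, with a median of -0.23 against -0.01 for all genes. Nfkbie was at 7.31, 8.16 and 9.17 CPM in AhR-/- naive replicates 1, 3 and 4 and overlapped WT. Tnfaip3 was at -0.52 (SE 0.32), and Nfkb2 and Relb both at -0.35 (SE 0.16 and 0.31). The number called was also 0 by DESeq2, the likelihood ratio test and voom. In the libraries labelled CYP1B1-/- 0 of the 10 genes passed while 0.0129% of all genes did, again with 0 by the other 3 tools. The values were negative in 5 of the 10 genes, with a median of 0.05 against -0.05 for all genes. Again Nfkbie alone had an unadjusted p under 0.05 (-0.46, SE 0.18), as did 5.8% of all genes. CYP1B1-/- naive replicate 2 was high for Relb at 32.2 CPM, against 13.8 and 12.7 CPM, for Tnfaip3 at 45.4 CPM, against 24.6 and 22.6 CPM, and for Rela at 115 CPM, against 73.9 and 61.8 CPM.

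The pathway around these genes was read from 4 lists, whose counts stand against all genes tested. With HDM 19.0% of all genes rose in WT (3223 of 16639 fell), 10.6% rose and 10.1% fell in AhR-/-, and 15.5% rose and 17.9% fell in CYP1B1-/-. Against WT after HDM 12.9% of all genes were lower in AhR-/-, and 1305 of 14161 were higher. With the hematopoietic score as a covariate, or without any 1 of the 5 HDM libraries named above, 0 of all genes passed in that comparison, those of the lists included. For HDM against naive 45 of all genes passed with that covariate in WT, 337 in AhR-/- and 251 in CYP1B1-/-. Among 27 genes of the IKK complex and upstream adaptors 12 rose and 0 fell with HDM in WT, with a median of 0.60. They included Birc3 (3.28, SE 0.50, adjusted p = 2.77e-05), which encodes the ubiquitin ligase cIAP2, and Map3k14 (2.33, SE 0.40, adjusted p = 8.59e-05), the NIK kinase of the non-canonical route. In AhR-/- 6 rose and 2 fell, Traf6 among the latter (-1.47, SE 0.35, adjusted p = 0.00635), and in CYP1B1-/- 11 rose and 1 fell. Against WT after HDM 11 were lower and 0 higher in AhR-/- libraries, with a median of -0.70, among them Map3k14 (-2.06, SE 0.45, adjusted p = 0.0261) and the adaptor gene Myd88 (-1.33, SE 0.33, adjusted p = 0.0268).

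Of 15 receptor genes that feed the pathway 7 rose and 4 fell with HDM in WT (median 0.82). In the naive fit 14 of the 15 passed the filter on low counts. A gene that passed only through the HDM libraries had to be higher there. The counts and the median for HDM against naive are therefore a description and support no direction. Cd40 (6.34, SE 0.84, adjusted p = 1.12e-05), a receptor of B cells and other antigen-presenting cells, and Tnfrsf1b (4.25, SE 0.77, adjusted p = 0.000177) rose, and the flagellin receptor gene Tlr5 fell by 3.26 on the log2 scale (SE 0.30, adjusted p = 1.3e-06). In AhR-/- 5 rose and 2 fell, and in CYP1B1-/- 7 rose and 5 fell. Against WT after HDM 2 of the 15 were higher in AhR-/- libraries, as were 1305 of all 14161 genes. The receptor genes were Tlr5 (1.07, SE 0.36, adjusted p = 0.0484) and Il18r1 (1.34, SE 0.43, adjusted p = 0.0437). There were also 2 of the 15 lower, near the background of 12.9%, Cd40 (-3.10, SE 0.70, adjusted p = 0.0261) and Il1rl1 (-2.73, SE 0.66, adjusted p = 0.0261), which encodes the IL-33 receptor.

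Among 20 other inhibitor genes 12 rose and 2 fell with HDM in WT (median 1.27), 7 and 3 in AhR-/- and 9 and 2 in CYP1B1-/-. In the naive fit 18 of the 20 passed the filter, so these counts and this median are also a description and support no direction. Nlrc5 (5.04, SE 0.54, adjusted p = 4.86e-06) and Bcl3 (3.33, SE 0.40, adjusted p = 6.5e-06), which encodes an atypical nuclear IkappaB protein, rose in WT, and in AhR-/- the values were 3.66 (SE 0.60, adjusted p = 0.000563) and 1.98 (SE 0.44, adjusted p = 0.00361). Against WT after HDM 7 were lower in AhR-/- and 0 higher (median -0.92), including Nfkbid (-2.36, SE 0.70, adjusted p = 0.0361), a further IkappaB gene, and the deubiquitinase gene Cyld (-0.98, SE 0.30, adjusted p = 0.0396).

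Of the 37 target genes, 36 passed the filter on low counts in the fits with HDM libraries and 23 in the naive fit. With HDM 20 rose and 4 fell in WT, 22 rose and 3 fell in AhR-/- and 22 rose and 5 fell in CYP1B1-/-. A gene that passed the filter only through the HDM libraries had to be higher there, so these counts are a description and support no direction. The chemokine gene Ccl20 rose by 9.10 (SE 1.06, adjusted p = 6.5e-06) in WT, 9.13 (SE 1.21, adjusted p = 0.000146) in AhR-/- and 9.21 (SE 1.19, adjusted p = 1.6e-05) in CYP1B1-/-. Tnf rose by 6.36 (SE 0.70, adjusted p = 6.36e-06), 6.07 (SE 0.86, adjusted p = 0.000187) and 6.12 (SE 0.82, adjusted p = 1.84e-05). Against WT after HDM 4 of 36 were lower in AhR-/- and 1 higher, with a median of -0.03, which is close to the background of 12.9% lower and to the median of 0 for all genes. The higher one was Saa3 (3.81, SE 1.02, adjusted p = 0.029), an acute phase protein gene, and Psmb9 (-1.97, SE 0.56, adjusted p = 0.0334), an immunoproteasome subunit gene, was among the lower. Bcl2a1b (-2.16, SE 0.68, adjusted p = 0.0414) shares sequence with near-identical copies and its value is uncertain. The difference between the lists was not tested. In the naive comparisons, where 27 adaptor, 14 receptor and 18 other inhibitor genes were tested, in CYP1B1-/- against WT after HDM and in both interactions 0 genes of the 4 lists passed by edgeR.

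Within groups, Relb, Rel and Nfkbie varied most between libraries, with root mean square deviations from the group mean of 0.84, 0.83 and 0.66 on the log2 scale over the 22 libraries. The genes whose deviations differed least from those of Relb were Pkmyt1 and Socs1, at root mean square differences of 0.25 and 0.27. For Rel they were Nusap1 and Shcbp1 (0.21 and 0.23), and for Nfkbie Lipe and Mknk1 (0.18 and 0.19). Among the 10 genes Nfkbie and Nfkb2 were closest to each other, at 0.26, apart from Nfkbia and Nfkbib at 0.20. These libraries also share their depth and marker content.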

How the data were processed

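Poly(A) cDNA libraries of sorted ECs were sequenced. The authors used bbduk for trimming, GSNAP for alignment (build mm10) and featureCounts 2.0.0 with Ensembl 99 gene models for counting, per the submitters' processing notes and methods. Values were deposited as raw counts, without normalization; strand and multimapping settings are not given in the sources used here. Of the genes listed, 54147 matched GENCODE M21 by identifier, and protein-coding ones were tested with edgeR 4.0.16 in R 4.3.3 (filterByExpr by group with minimum count 10 and minimum total 15, TMM, robust glmQLFit and glmQLFTest, Benjamini-Hochberg over all genes, adjusted p at most 0.05). The 10 naive and the 12 HDM libraries were fitted separately for genotypes, and all 22 together for states and interactions. SE is the log2 fold change over the square root of F. CPM are on one TMM scale of the 22 libraries, and log2 CPM use a prior count of 1. Alternatives used limma 3.58.1 and DESeq2 1.42.0. The test was tested on simulated data with known fold changes. The 10 genes and the lists were chosen with earlier results of these data known. Besides the 10 genes, genes of a list were named by lowest p among those passing, up to 6 per list and comparison, or 2 where none passed. P-values measure the spread between these samples.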

Additional observations from a re-analysis of the deposited data

Results flagged for a closer look

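Of 40 sets of 4 libraries (the 10 genes in each group of 4), 2 held a library far from the other 3; chance gives about 1 in 20. Relb in WT HDM replicate 2 was at 4.70 log2 CPM, against 6.42 to 6.71 in the other replicates. Tnfaip3 in WT naive replicate 2 was at 3.75 log2 CPM, against 4.71 to 4.90. Without WT HDM replicate 2 the difference of Relb between AhR-/- and WT after HDM was -2.95 (adjusted p = 0.0257), against -2.67 with it.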

How the results depend on the processing

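The number of the 10 genes called was 0 under every alternative in both naive comparisons, in CYP1B1-/- against WT after HDM and in the CYP1B1-/- interaction. For AhR-/- against WT after HDM (5 as reported) it was 8 with the likelihood ratio test, 9 with DESeq2, 10 with voom, 0 with the replicate block (all genes 1), 0 with the hematopoietic score and 0 without the 2 HDM libraries with Y-linked reads; leaving out 1 library gave 0 to 7. For HDM against naive it was 0 with the hematopoietic score in WT (9 as reported; 8 to 9 otherwise) and 0 in CYP1B1-/- (7 as reported; leaving out 1 library 5 to 8, upper-quartile scaling 10), where Nfkb2 and Tnfaip3 reversed to -0.05 and -0.28. In AhR-/- (3 as reported) it was 1 with that score, 5 with DESeq2, RLE, upper-quartile scaling, at least 10 counts in every library or without the 2 Y-linked libraries, 6 without the 3 shallowest HDM libraries by TMM-scaled counts, and 3 to 5 leaving out 1 library. For the AhR-/- interaction (0 as reported) it was 3 with DESeq2, 10 with voom, 1 without those 3 libraries and 0 to 3 leaving out 1 library. The cause was not tested. Over all genes, the number called in AhR-/- against WT after HDM (3129) was 1802 without a filter on low counts, 4120 with the likelihood ratio test, 4592 with DESeq2 and 6669 with voom. With the hematopoietic score it was 45 for HDM in WT (6391 as reported), 337 in AhR-/- (3435) and 251 in CYP1B1-/- (5560). For the AhR-/- interaction (0) it was 221 with the likelihood ratio test, 1236 with DESeq2 and 5042 with voom. In the naive comparisons it was 0 to 13 for AhR-/- (0) and 0 to 8 for CYP1B1-/- (2). Upper-quartile scaling moved the median of all genes to 0.15 in AhR-/- against WT after HDM, and Nfkbiz was then at -0.06. Called members changed sign under no scaling. Same-numbered libraries of different genotypes correlated in their deviations from group means at -0.02 to 0.24 (naive) and -0.47 to 0.67 (HDM). Those of different number correlated at -0.27 to 0.24 and -0.67 to 0.52. In naive libraries 4 of 8 same-numbered and 4 of 25 other pairs were over 0.1, and in HDM libraries 4 of 12 and 18 of 36. Whether the numbers pair the samples cannot be told from these values. The replicate block moved the number of the 10 genes called by over 1.5 times in no other comparison. Tnfaip3 did not pass with it for HDM in CYP1B1-/- (1.11, adjusted p = 0.115), and over all genes it called 0 in CYP1B1-/- naive (2 as reported). The settings without libraries with Y-linked reads, without shallow libraries and without dominant predicted genes were chosen after seeing the data. Depth limits Relb in AhR-/- HDM replicate 3 most, at 4 counts.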
